A study of Mus musculus with 4 samples.

Results

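The genes described here are 9 components of the Hedgehog pathway, measured in mouse cerebral cortex at embryonic day 15 (E15) by sequencing of polyadenylated RNA. They were chosen by name, not by their values: the co-receptors Gas1, Cdon and Boc, the receptor Ptch1, the signal transducer Smo, the inhibitor Sufu and the transcription factors Gli1, Gli2 and Gli3. All 9 have a row in the deposited table of 13289 genes. The table holds 2 control libraries, titled WT, and 2 libraries titled Lhx2cKO, called Lhx2 cKO here and read as conditional knockout of Lhx2, a LIM-homeodomain transcription factor of cortical progenitors. The Cre driver, the floxed allele, the litter, the sex and the number of embryos in a library are not given in the sources used here. Nothing in the labels says that the libraries of a group came from separate embryos, so p-values measure the spread between these libraries, which may be technical.

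Hedgehog ligands bind Ptch1, with Gas1, Cdon and Boc as co-receptors that help the ligand bind. Free Ptch1 holds Smo inactive, and ligand binding lifts this block, so that Smo, acting at the primary cilium, keeps the Gli proteins from being held by Sufu and cut into repressors. Gli2 is mainly an activator, Gli3 is mainly a repressor when cut, and Gli1 and Ptch1 are themselves transcribed in response to the signal. In the forebrain the pathway is best known for patterning the ventral telencephalon, while Gli3 is needed for the dorsal cortex to form, and cortical radial glia, the stem cells of this tissue, carry a primary cilium into the ventricle.

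Library totals ranged from 22294237 to 24609627 counts, and the limit that a count of 0 allows, 3 counts, was 0.120 to 0.132 in CPM, counts scaled to a common library total, for counting error only. Lhx2 itself was at 316 and 287 CPM in control and at 239 and 247 CPM in Lhx2 cKO; its log2 fold change was -0.31, with an SE of 0.098 and an adjusted p of 0.0191 in edgeR. That call was lost without control 1 (adjusted p 0.176), without Lhx2 cKO 1 (0.102) and without Lhx2 cKO 2 (0.0538). Counts over the whole gene cannot show whether a deleted exon is missing. The labelled tissue was checked against markers of dorsal cortex: Neurod6 was at a mean of 604 CPM in control and 483 CPM in Lhx2 cKO and Tbr1 at 240.2 and 254 CPM, while Nkx2-1 and Gsx2, which mark ventral progenitors, were not analysed here.

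The co-receptors Gas1 and Cdon and the activator Gli2 fell the most: Gas1 to 41.98%, Cdon to 45.6% and Gli2 to 46.0% of the control level. Gli3 fell to 70.4% and Ptch1 rose to 135.4% of control. Smo, Sufu, Boc and Gli1 did not pass the test. Of the 9 genes 5 were called at an adjusted p under 0.05 in edgeR, 4 lower and 1 higher, while 20.8% of the 13288 genes tested were called, 9.17% lower and 11.6% higher. A fall of 2-fold or more was called for 3 of the 9 genes, against 0.918% of all genes tested. Control and Lhx2 cKO libraries were fully apart for 8 of the 9 genes, all but Gli1, against 59.3% of all genes tested. The median log2 fold change of the 9 genes was -0.19, and that of all genes tested was 0.0034.

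The stretches of genome just before the annotated starts of 3 called genes are shown so that a gene that rose (Ptch1) can be read beside a pair that fell (Gas1 and Gli2). Each is the 250 bases before the RefSeq start, 5′ to 3′ on the strand of the gene, from the build GRCm38.p6; the counts were made on mm39, per the submitters' processing notes, and no coordinate was carried over. Capitals mark CpG dinucleotides.
Gas1, chr13:60177536-60177785, minus strand: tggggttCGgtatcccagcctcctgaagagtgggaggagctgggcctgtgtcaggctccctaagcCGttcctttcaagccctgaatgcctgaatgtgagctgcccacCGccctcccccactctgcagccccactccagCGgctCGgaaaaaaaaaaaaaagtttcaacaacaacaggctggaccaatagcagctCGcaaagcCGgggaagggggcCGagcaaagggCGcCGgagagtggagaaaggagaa
Gli2, chr1:119053620-119053869, minus strand: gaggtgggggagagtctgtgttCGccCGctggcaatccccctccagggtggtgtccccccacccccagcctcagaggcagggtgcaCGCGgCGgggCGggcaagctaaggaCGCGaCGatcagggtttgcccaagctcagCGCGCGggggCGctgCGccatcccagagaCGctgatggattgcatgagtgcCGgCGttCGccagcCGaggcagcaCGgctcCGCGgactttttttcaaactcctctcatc
Ptch1, chr13:63565736-63565985, minus strand: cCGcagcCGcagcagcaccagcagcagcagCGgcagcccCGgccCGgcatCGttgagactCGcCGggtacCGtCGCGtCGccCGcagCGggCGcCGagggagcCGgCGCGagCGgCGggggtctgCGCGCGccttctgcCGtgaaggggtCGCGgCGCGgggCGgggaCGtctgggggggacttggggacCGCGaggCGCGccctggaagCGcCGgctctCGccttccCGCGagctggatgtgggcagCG

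The upstream windows differed in CpG content, with 10 CpG for Gas1, 22 for Gli2 and 41 for Ptch1, against a median of 6 over all 32851 RefSeq windows. The window of Gli3, which was also called lower, had 34 CpG and is not shown. A link between CpG content and the direction of change was not tested. RefSeq windows were matched for 7 of the 9 genes. That of Cdon, with 1 CpG, is not shown, because GENCODE M21 holds transcripts of Cdon that start up to 30948 bases further upstream, and counts per gene do not say which start was used. Ptch1 also has a start 7863 bases upstream of the one shown. For Gas1, bases just after the RefSeq start were not found in its GENCODE M21 transcripts, though 1 of these 2 transcripts starts within 250 bases of it. Among the 7 windows, read on both strands, the Gli consensus TGGGTGGTC was found in 0, as in all but 0.225% of all windows. Its inner letters GGGTGGT, which lie within the consensus, were found in the Gli2 window, 205 to 199 bases before the start, and in 3.92% of all windows. The overlapping letters TGGGTGG were found in 0 of the 7 (8.11% of all windows), and so were the homeodomain core letters TAATTA (4.84% of all windows), the variant TAATTG (7.17%) and the variant TAATGA (8.59%). A match is a description of the letters and not a binding site.

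Gas1 (ENSMUSG00000052957.9), a membrane-anchored co-receptor, was at 91.0 and 108.5 CPM in control and at 37.7 and 46.1 CPM in Lhx2 cKO. Both Lhx2 cKO libraries lay below both control libraries, by far more than the libraries of a group lay apart. The mean went from 99.8 ± 12.4 to 41.9 ± 5.90 CPM (SD, n = 2), and edgeR gave -1.25 on the log2 scale with an SE of 0.108 and an adjusted p of 4.79e-12. It ranged from -1.41 to -1.12 when each library was left out in turn.

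Cdon (ENSMUSG00000038119.16), an immunoglobulin-superfamily co-receptor, was at 231 and 241 CPM in control and at 100.3 and 115 CPM in Lhx2 cKO. It had the most reads of the 9 genes in every library, from 2281 to 6032 counts, and its groups were far apart. The log2 fold change was -1.13 (SE 0.098, adjusted p 4.91e-12 in edgeR), from 236 ± 7.15 to 107.7 ± 10.6 CPM (SD, n = 2).

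Boc (ENSMUSG00000022687.13), the close relative of Cdon with a similar domain layout, was not called. It was at 71.6 and 76.7 CPM in control and at 78.9 and 88.5 CPM in Lhx2 cKO. The Lhx2 cKO libraries were the higher ones, but the log2 fold change of 0.18 (SE 0.099) did not pass the test (adjusted p 0.220 in edgeR), with a 95% interval from -0.02 to 0.37. Its size rests on the libraries kept, from 0.09 without Lhx2 cKO 2 to 0.26 without Lhx2 cKO 1. The interval lies outside the one for Cdon, which ran from -1.33 to -0.94.

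Per kilobase of gene length, the scale on which different genes can be compared, the 3 co-receptors together were at 76.8 and 85.2 CPM per kb in control and at 43.5 and 50.4 CPM per kb in Lhx2 cKO. In control, Gas1 gave 40.03% and 43.04% of this sum, Cdon 39.03% and 36.74%, and Boc 20.94% and 20.23%. In Lhx2 cKO the share of Boc was 40.79% and 39.48%, that of Gas1 29.31% and 30.88% and that of Cdon 29.90% and 29.64%. Per kb, Boc was thus the lowest of the co-receptors in both control libraries and the highest in both Lhx2 cKO libraries. This order in Lhx2 cKO rests on the deposited gene lengths. In CPM, Cdon (100.3 and 115 CPM) stayed above Boc (78.9 and 88.5 CPM) there.

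The ratio of Cdon to Boc per kb was 1.86 and 1.82 in control against 0.733 and 0.751 in Lhx2 cKO. A ratio within a library does not depend on how libraries are scaled, and here the replicates of a group lay close together while the groups were well apart. An exact two-sided permutation test over the libraries gave p = 0.333, the smallest that 2 libraries against 2 can give, and 0.381 after Benjamini-Hochberg adjustment over the 8 ratios computed. The ratio of Gas1 to Cdon was 1.03 and 1.17 in control against 0.980 and 1.04 in Lhx2 cKO, so the groups overlapped (exact permutation p = 0.667). The 5 ratios of co-receptors were chosen after the values were seen.

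**Figure D1:**
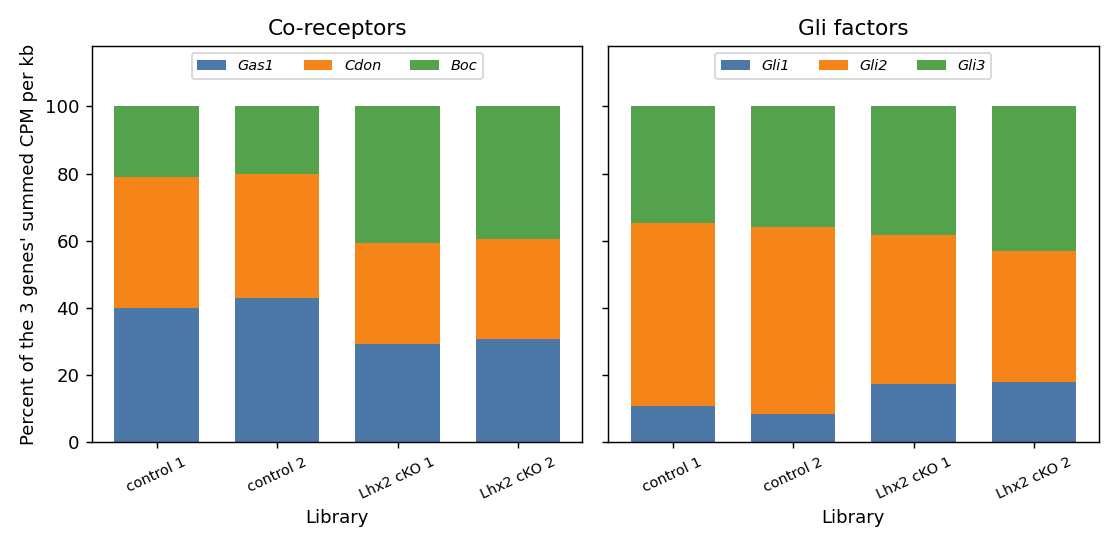
Share of each gene in the summed CPM per kb of its family, in percent, for the co-receptors (left) and the Gli factors (right), with 1 stacked bar per library. Boc takes 20.23% to 20.94% in the control libraries and 39.48% to 40.79% in the Lhx2 cKO libraries, and Gli2 goes from 54.54% and 55.75% to 44.27% and 38.95%.

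Ptch1 (ENSMUSG00000021466.13), the receptor and also a transcriptional target of the pathway, was at 15.1 and 17.4 CPM in control and at 20.3 and 23.8 CPM in Lhx2 cKO. Both Lhx2 cKO libraries lay above both control libraries, with a gap between the nearest libraries of similar size to the gap within a group. The log2 fold change was 0.44 (SE 0.138, adjusted p 0.0191 in edgeR), from 16.3 ± 1.63 to 22.0 ± 2.48 CPM (SD, n = 2). The call was lost in DESeq2 (adjusted p 0.0609), without control 1 (0.33, adjusted p 0.220) and without Lhx2 cKO 2 (0.31, adjusted p 0.265).

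Smo (ENSMUSG00000001761.8), the seven-pass membrane protein that Ptch1 restrains, was at 42.8 and 48.0 CPM in control and at 40.1 and 39.96 CPM in Lhx2 cKO. The Lhx2 cKO libraries lay just below the control libraries, and the log2 fold change of -0.18 (SE 0.105) did not pass the test (adjusted p 0.233 in edgeR; 95% interval -0.39 to 0.03). It was -0.27 without control 1 and -0.096 without control 2, not called in either case. Sufu (ENSMUSG00000025231.18), which binds Gli proteins in the cytoplasm, was at 47.6 and 37.7 CPM in control and at 37.3 and 37.4 CPM in Lhx2 cKO. Control 1 stood above the other libraries, and the log2 fold change of -0.19 (SE 0.111) did not pass (adjusted p 0.242; 95% interval -0.41 to 0.03). It was -0.35 with an adjusted p of 0.0420 without control 2 and -0.02 without control 1, so its size rests on which control library is kept.

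Gli2 (ENSMUSG00000048402.15), the main activator among the Gli factors, was at 34.2 and 36.4 CPM in control and at 17.0 and 15.4 CPM in Lhx2 cKO. The replicates of each group differed by little beside the distance between groups. The log2 fold change was -1.12 (SE 0.123, adjusted p 2.29e-09 in edgeR), from 35.3 ± 1.54 to 16.2 ± 1.13 CPM (SD, n = 2).

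Gli3 (ENSMUSG00000021318.16), the main source of Gli repressor, was at 30.4 and 32.7 CPM in control and at 20.5 and 23.9 CPM in Lhx2 cKO. It was lower in both Lhx2 cKO libraries, by less than Gli2. The log2 fold change was -0.51 (SE 0.121, adjusted p 0.00171 in edgeR), with a 95% interval from -0.75 to -0.26 that lies outside that of Gli2 (-1.37 to -0.87).

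Gli1 (ENSMUSG00000025407.8), an activator widely used as a readout of pathway activity, was at 4.91 and 3.96 CPM in control and at 4.88 and 5.14 CPM in Lhx2 cKO, from 99 to 119 counts per library. The groups overlapped, and the log2 fold change of 0.18 (SE 0.248) did not pass the test (adjusted p 0.676 in edgeR). It was 0.33 without control 1 and 0.029 without control 2. Its 95% interval, from -0.32 to 0.68, is the widest of the 9 genes, so at this depth a change of the size seen for Ptch1 was not detectable as a difference for Gli1. The exons of Gli1 overlap those of Arhgap9 on the other strand in GENCODE M21, and the use of strand in counting is not given, so its counts are uncertain. Arhgap9 had 32 and 15 counts in control, against 36 and 44 in the knockout. Gas1 and Gli3 also overlap genes on the other strand (Gm48488 and Gm6556), which were not analysed here.

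**Figure D2:**
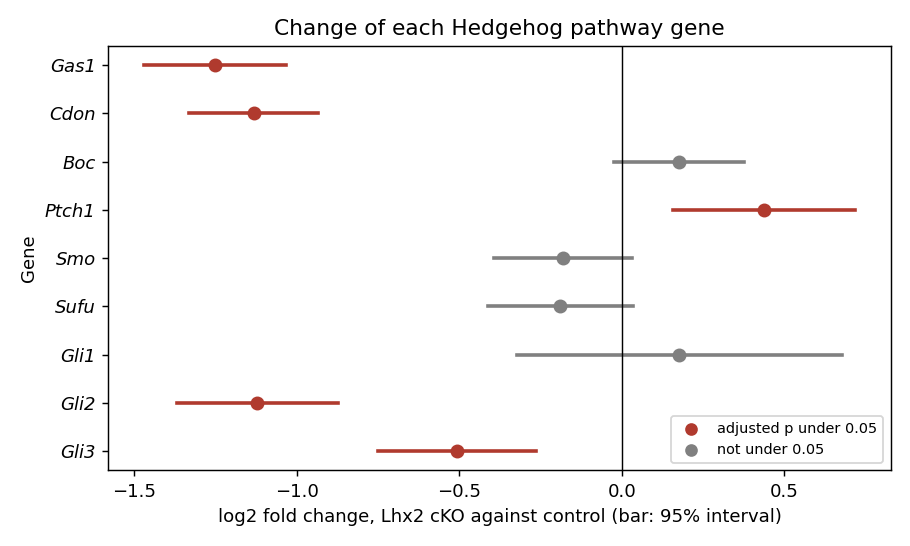
Log2 fold change, Lhx2 cKO over control, for each of the 9 genes (horizontal axis), with its 95% interval as a bar, from edgeR over 2 libraries a group. Gas1, Cdon and Gli2 sit between -1.25 and -1.12, Gli3 at -0.51 and Ptch1 at 0.44, and the intervals of Boc, Smo, Sufu and Gli1 span 0.

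Within a library the ratio of Gli2 to Gli3 per kb was 1.57 and 1.55 in control against 1.16 and 0.902 in Lhx2 cKO. The ratio of Gli1 to Gli3 was 0.310 and 0.233 in control against 0.456 and 0.413 in Lhx2 cKO, and that of Gli1 to Gli2 was 0.197 and 0.150 in control against 0.394 and 0.458 in Lhx2 cKO. None of the 3 ratios overlapped between groups, and each had an exact permutation p of 0.333 (0.381 adjusted), the smallest possible here. Gli2 was the most abundant Gli transcript per kb in both control libraries. In Lhx2 cKO, Gli2 was above Gli3 in replicate 1 and below it in replicate 2. The 3 factors summed to 9.13 and 9.50 CPM per kb in control and to 5.59 and 5.76 CPM per kb in Lhx2 cKO.

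In order of level per kb in control, Gas1 (33.7 ± 4.18) and Cdon (30.6 ± 0.927) came first, with overlapping libraries, followed by Boc (16.7 ± 0.805), Smo (8.07 ± 0.655), Sufu (5.54 ± 0.907) and Gli2 (5.14 ± 0.225), all in CPM per kb (SD, n = 2). Sufu and Gli2 overlapped. Gli3 (3.29 ± 0.172), Ptch1 (1.15 ± 0.115) and Gli1 (0.888 ± 0.134) were the lowest. In Lhx2 cKO the order was Boc (18.8 ± 1.53), Gas1 (14.1 ± 1.99), Cdon (14.0 ± 1.37), Smo (7.12 ± 0.0154), Sufu (4.86 ± 0.0112), Gli2 (2.36 ± 0.165), Gli3 (2.31 ± 0.246), Ptch1 (1.55 ± 0.175) and Gli1 (1.003 ± 0.0365). There Gas1 and Cdon overlapped, as did Gli2 and Gli3.

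**Figure D3:**
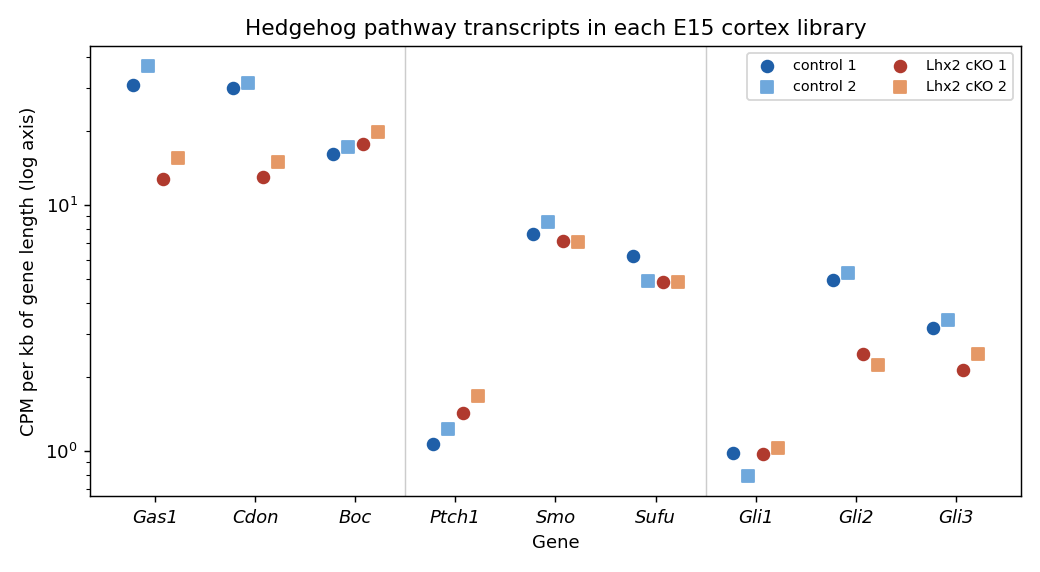
Level of each gene in each library in CPM per kb of gene length, on a log axis, with 1 point per library and the genes grouped as co-receptors, receptor with transducers, and Gli factors. The Lhx2 cKO points of Gas1 (12.7 and 15.6) and Cdon (13.0 and 14.9) lie below their control points and below the Boc points of the same libraries (17.7 and 19.9).

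In the authors' deposited table, Gas1 (log2 fold change -1.26), Cdon (-1.14) and Gli2 (-1.13) are the members marked as down. That table gives Gli3 (-0.52, adjusted p 8.70e-04) and Ptch1 (0.43, adjusted p 0.0228) no mark, since every gene it marks has a log2 fold change of 0.585 or more in size.

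In bulk tissue, fewer cells of a type and less RNA per cell cannot be told apart, and markers of several cell types moved with the groups. Of 10 cell cycle markers 8 were called lower, led by Mki67 (-0.87), Top2a (-0.86) and Cdk1 (-0.96), and their summed level was 406 and 454 CPM in control and 273 and 271 CPM in Lhx2 cKO. Of 7 intermediate progenitor markers 5 were called lower, led by Eomes (-1.66), Elavl4 (-0.55) and Mfng (-0.56), with sums of 947 and 932 CPM against 596 and 603 CPM. Elavl4 is not particular to these cells, since neurons express it too. It gave 161 and 159 CPM of the sum in control and 117 and 101 CPM in Lhx2 cKO. Of 11 radial glia markers 5 were called lower, among them Pax6 (-1.24), Notch1 (-0.72) and Emx2 (-0.55), and Slc1a3 (0.27) was called higher. The radial glia sums, 903 and 959 CPM against 865 and 836 CPM, differed by less than those of the other progenitor lists. This sum mixes directions: the mean of Vim went from 208.8 to 239.8 CPM, Fabp7 from 159 to 177.3 and Slc1a3 from 113.1 to 136.5. Vim and Fabp7 were not called. Pax6 went from 128.8 to 54.6 CPM, or 42.4% of control, about as far down as Gas1, Cdon and Gli2. The radial glia yardstick thus depends on which genes dominate the sum. Of 8 dorsal cortex markers 4 were called lower, with Emx1 at -1.54.

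Set beside the summed radial glia markers of the same library, Gas1 (-1.12), Cdon (-1.01), Gli2 (-0.99) and Gli3 (-0.38) still had lower values in both Lhx2 cKO libraries, in log2 units, and Ptch1 (0.57), Boc (0.30) and Gli1 (0.31) higher ones, while Smo and Sufu overlapped. Set beside the summed cell cycle markers, Gas1 (-0.60), Cdon (-0.48) and Gli2 (-0.47) were lower in both Lhx2 cKO libraries, and Gli3 (0.15), Smo (0.48), Sufu (0.48), Boc (0.83), Gli1 (0.84) and Ptch1 (1.10) were higher in both. Beside intermediate progenitor markers the values were -0.61 for Gas1, -0.49 for Cdon, -0.48 for Gli2 and 0.14 for Gli3, whose libraries overlapped. They were 0.47 for Smo, 0.47 for Sufu, 0.82 for Boc, 0.83 for Gli1 and 1.09 for Ptch1, all without overlap. The direction for Gli3, Smo and Sufu thus depends on the yardstick, while that for Gas1, Cdon and Gli2 was lower in CPM and beside each of the 3 lists. Ptch1, Boc and Gli1 were higher beside each list, but this was fixed in advance. All 3 sums were lower in Lhx2 cKO, so a gene that did not fall in CPM is higher beside them. Boc and Gli1 were not called in CPM. The values beside the lists carry no test, and the yardsticks were added after the data were seen.

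**Figure D4:**
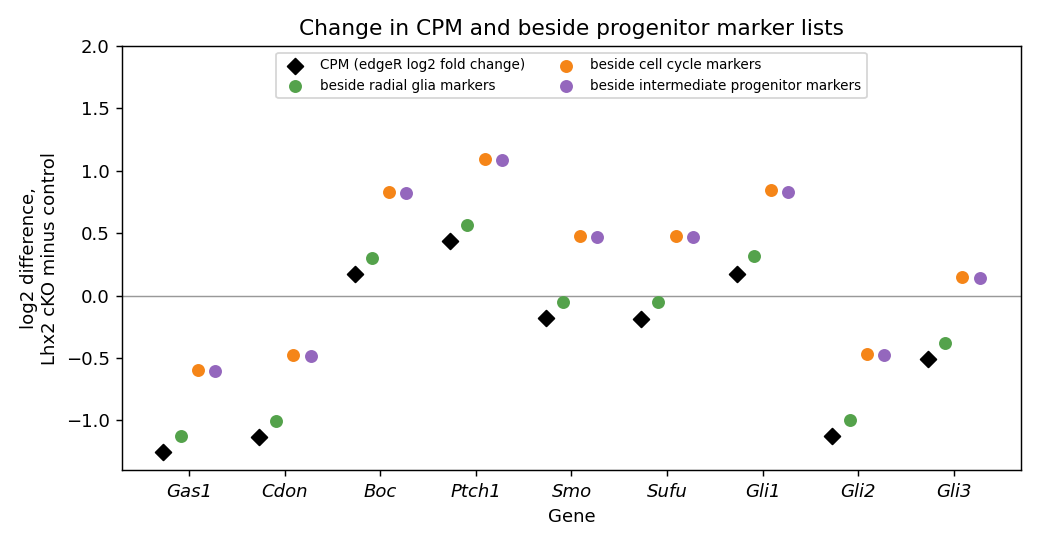
Log2 difference of Lhx2 cKO minus control for each gene in CPM (black diamonds, edgeR) and beside the summed CPM of 3 progenitor marker lists in the same library (coloured points). Gas1, Cdon and Gli2 lie below 0 on every scale, Ptch1, Boc and Gli1 above it, while Gli3, Smo and Sufu lie at -0.51, -0.18 and -0.19 in CPM and at 0.15, 0.48 and 0.48 beside cell cycle markers. All 3 marker sums were lower in Lhx2 cKO, so genes above 0 in CPM lie above it beside the lists by construction.

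Markers of other cell types also moved with the groups. Of 7 oligodendrocyte precursor markers 6 were called higher, led by Egfr (2.80), Olig1 (1.26) and Olig2 (1.28), and their summed level was 50.1 and 56.9 CPM in control and 94.6 and 105.0 CPM in Lhx2 cKO. Of 8 microglia markers 7 were called higher, led by C1qb (1.36), C1qc (1.402) and Trem2 (1.51), with sums of 114 and 114 CPM against 230 and 254 CPM. Of 7 endothelial and pericyte markers 4 were called higher and 1 lower, led by Cldn5 (0.70), Cdh5 (0.72) and Kdr (0.49), with sums of 218 and 246 CPM against 272 and 307 CPM. These named genes are endothelial. Of the pericyte genes in the list, Rgs5 (-0.34) was the 1 called lower and Pdgfrb (0.06) was not called, with overlapping libraries. All 3 lists were higher in sum in both Lhx2 cKO libraries.

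Of 7 astrocyte markers 4 were called higher and 1 lower, with Aldh1l1 at 2.58, Slc1a2 at 0.90 and Fgfr3 at -0.80, and the sums (163 and 171 CPM against 175 and 169 CPM) overlapped. Fgfr3, at a mean of 91.2 CPM in control and 52.2 CPM in Lhx2 cKO, was the largest part of the control sum. Its fall offset the rise of the 4 called higher. Of 9 ventral telencephalon and interneuron markers 7 are in the table, and Sst (1.07) and Gad2 (0.48) were called higher; the sums were 242 and 208 CPM against 289 and 281 CPM. Of 10 neuron markers Stmn2 (0.60) was called higher and Rbfox3 (-0.43) and Neurod6 (-0.32) lower (sums of 5307 and 5228 CPM against 5343 and 5616 CPM). Of 4 meningeal markers in the table Col1a1 (-3.00) was called lower (51.6 and 51.1 CPM against 33.8 and 33.0 CPM in sum). The lower sum is that of Col1a1 alone: the others were not called, with Col1a2 at 0.25, Col3a1 at 0.20 and Foxc1 at -0.03, and the first pair was higher in both Lhx2 cKO libraries. Of 7 red blood cell markers Hbb-y (0.49) was called higher and 5 lower, led by Hbb-bt (-1.01) and Alas2 (-0.82), with sums of 3178 and 2344 CPM against 2134 and 1903 CPM. The part of these cells in the results for the 9 genes was not tested.

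Beyond the 9 genes, 104 other genes of the pathway were listed by role, and 89 of them are in the table. Of these 22 were called, 7 higher and 15 lower, which is 24.7% beside the 20.8% of all genes tested. Their median log2 fold change was -0.09.

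The ligands Shh, Ihh and Dhh were not analysed here. Of the 8 ligand-handling genes in the table, Disp2 (0.53, adjusted p 8.48e-05 in edgeR) and Scube3 (0.37), whose family of secreted proteins helps the ligand leave the cell, were called higher. Disp3 (-0.57, adjusted p 1.94e-05), a relative of the ligand exporter Disp1, was called lower. Disp1 itself was at 15.2 CPM in control and 16.6 CPM in Lhx2 cKO, at 0.13 on the log2 scale, and was not called.

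Of 9 further ligand-binding or receptor-regulating genes, 2 were called, both lower. Gpc4 (-0.72, adjusted p 4.99e-07 in edgeR) and Gpc3 (-1.33, adjusted p 3.78e-04) are cell-surface heparan sulphate proteoglycans, and Gpc3 is known to compete for Hedgehog ligand. Gpc3 was low, with 148 and 167 counts in control against 39 and 77 in Lhx2 cKO.

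Downstream of Smo, 4 of 14 genes at the cilium were called. Grk3 (0.71), from a kinase family that phosphorylates Smo, was higher, and Evc (-0.40), Tulp3 (-0.34) and Adcy6 (-0.26) were lower. Evc is a ciliary partner of Smo, Tulp3 carries the inhibitory receptor Gpr161 into the cilium, and Gpr161 itself was at 0.25 with an adjusted p of 0.0510 in edgeR. Of 18 genes that process or degrade Gli proteins, Cul1 (-0.53), Dyrk2 (-0.43) and Stk36 (-0.42) were lower and Prkacb (0.40), a catalytic subunit of protein kinase A, was higher. The other 14, Kif7, Spop and Gsk3b among them, were not called.

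Of 22 genes of the primary cilium itself 3 were called, or 13.6%: C2cd3 (-0.34) and Kif3a (-0.27) lower and Wdr35 (0.35) higher. C2cd3 works at the basal body, Kif3a is a motor subunit that carries cargo up the cilium, and Wdr35 belongs to the complex that carries it back. All 22 lay between -0.39 and 0.35 on the log2 scale, a narrower range than that of the 9 genes (-1.25 to 0.44).

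Of 13 common Gli target genes in the table, Cdk6 (-1.403, adjusted p 1.61e-13 in edgeR), Foxm1 (-0.95) and Ccnd2 (-0.85) were called lower and Grem1 (1.34) and Olig2 (1.28) higher. Cdk6, Foxm1 and Ccnd2 drive the cell cycle, whose markers fell as given above, and Olig2 also stands in the oligodendrocyte precursor list. Ccnd1 was at 12.5 CPM in both groups and Mycn at -0.13, and neither was called. The list median was -0.001. Of 6 Zic and Glis genes, zinc-finger relatives of the Gli factors, Zic1 (-0.56) was called lower.

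**Figure D5:**
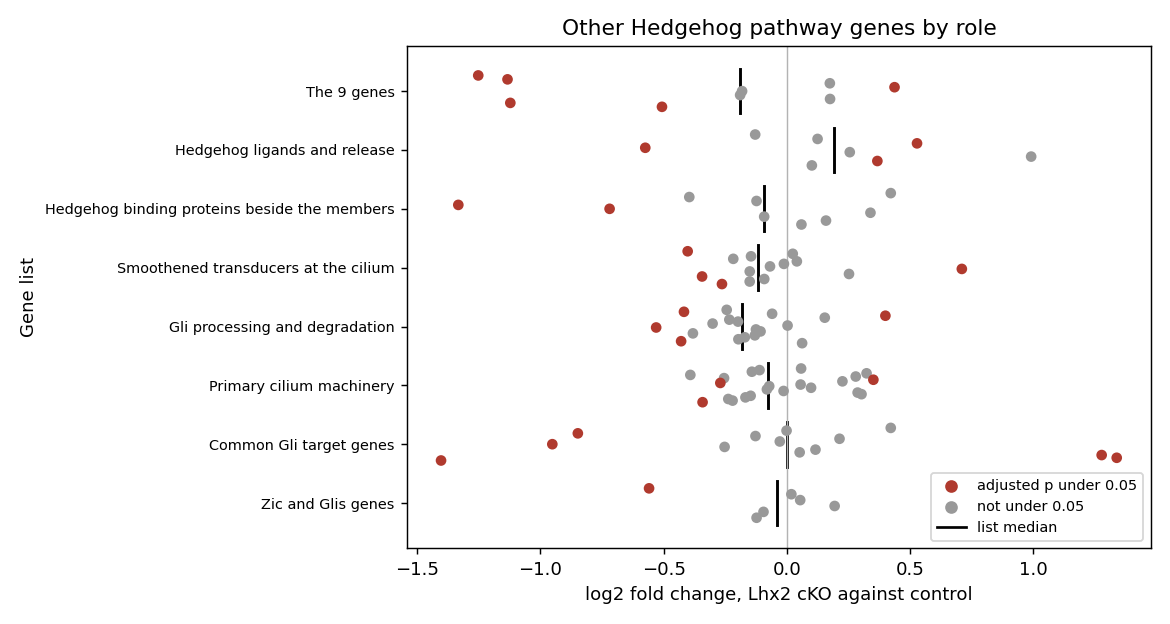
Log2 fold change, Lhx2 cKO over control, (horizontal axis) for the 9 genes and for each list of other pathway genes, with 1 point per gene, red where the adjusted p was under 0.05 in edgeR, and a black line at the median of a list. The cilium genes lie between -0.39 and 0.35, and the list medians between -0.19 for the 9 genes and 0.19 for ligand-handling genes.

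Genes whose 4 centred log2 CPM values lay nearest to those of each called gene were found among the 12454 genes whose mean reached 2 CPM, by Euclidean distance. Nearest to Gas1 were Dubr (0.049), Adamts1 (0.169) and Thsd4 (0.170), and nearest to Cdon were Wee1 (0.099), Pole2 (0.116) and Shisa6 (0.141). Nearest to Gli2 were Nr2e1 (0.041), Alg13 (0.073) and Cap2 (0.104). Gli3 lay nearest to Tmem163, Ska1 and Fhl3 (0.024 to 0.036) and Ptch1 to Grn, Pigc and Pcdhb16 (0.034 to 0.040). With 4 libraries many genes lie close, so these distances describe the libraries only.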

How the data were processed

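Polyadenylated RNA of 4 E15 cortex libraries was analysed from 1 deposited table. The submitters' processing notes name Trim Galore, Subread, featureCounts, edgeR and the build mm39; versions, annotation and use of strand are not given in the sources used here. The library columns hold raw counts deposited by the authors. The authors' log2 fold change, mean log2 CPM, p-value, adjusted p-value and -log10 columns are deposited beside them, with edgeR's column names per the file headers. The lowest row total was 102 counts, so low genes are not among these rows.

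Counts were tested with edgeR 4.0.16 in R 4.3.3 (TMM, filterByExpr with a minimum of 10 counts, glmQLFit and glmQLFTest, no covariates), with Benjamini-Hochberg adjustment over 13288 genes; called means an adjusted p under 0.05. The SE is the absolute log2 fold change over the square root of F. CPM use TMM-scaled totals, and CPM per kb divide by the deposited gene length. The fit was tested on simulated data. Replicates of a group differed by more than counting noise (chi-square of 13.9 in control and 14.3 in Lhx2 cKO per degree of freedom). Named genes were Lhx2, the 9 members, up to 6 called genes per pathway list and up to 3 per marker list by smallest p. Disp1, Gpr161, Kif7, Spop, Gsk3b, Ccnd1, Mycn, Slc1a3, Arhgap9, Vim, Fabp7, Rgs5, Pdgfrb, the other meningeal markers and the tissue markers were added. Some of these were added after their values were seen. Items withheld for evaluation are not reported here. The members and lists were chosen with earlier results of these data known. Alternatives were other scalings and filters, a replicate block, DESeq2 1.42.0, limma-voom (limma 3.58.1), a threshold of 0.01 and leaving out each library.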

Additional observations from a re-analysis of the deposited data

How the results depend on the processing

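Gas1, Cdon, Gli2 and Gli3 were called lower under each scaling, filter, block and tool run with all libraries and without each library in turn. At an adjusted p under 0.01 the genes called fell to 1697 (972 higher, 725 lower), fewer by construction. Ptch1, the only member called higher, was lost at that threshold and in DESeq2, which left 0 members called higher (1 at an unadjusted p under 0.05 in each case). Other pathway genes called higher went from 7 to 11 with upper-quartile factors and to 11 with the replicate block; the cause was not tested. The labels pair no replicates across groups (correlation of same-numbered deviations -0.005), and the block changed no member's call. Beside cell cycle and intermediate progenitor markers Gli3 was at 0.149 and 0.139, the reverse of its direction in CPM.

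Leaving out a library leaves 1 in its group, assumed to vary like the other group. The genes called then ranged from 1633 (without Lhx2 cKO 2) to 2396, those higher from 865 to 1395 and those lower from 768 to 1079. Without control 1 there were 1790. Members called higher ranged from 0 to 1, with 0 both without control 1 and without Lhx2 cKO 2 (0 at an unadjusted p under 0.05 in edgeR). Lhx2 ranged from -0.377 to -0.25 and lost its call except without control 2. Among the 9 genes depth limited Gli1 most, at 99 to 119 counts.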
